A study of Mus musculus with 3 samples.

Results

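The transcription factor genes Dlx1, Dlx2, Dlx5, Dlx6, Sp8 and Sp9, the antisense transcript Dlx6os1 and the GABA synthesis genes Gad1 and Gad2 were compared between 3 sets of cells in the mouse prefrontal cortex on postnatal day 6. These 9 genes were chosen by name from the 20368 genes of the table, and all 9 were present and passed the level filter used for testing. The tissue came from mice of both sexes that had inhaled about 3% sevoflurane, a volatile anaesthetic, on that same day, and it was profiled as 3 libraries of 1 group with droplet chemistry. No unexposed group belongs to the samples used here, so nothing below compares exposed with unexposed cells. The labels give no strain, leave unsaid whether each library is a different animal, and describe freezing and bulk RNA extraction of the tissue rather than how single cells were obtained. P-values therefore measure only how far differences between sets varied over these 3 libraries, and that variation may be technical.

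Each deposited value was the natural log of 1 plus a whole number, and these whole numbers, called corrected counts here, totalled between 4422 and 8135 in every cell. Between 121 and 4213 genes were detected in a cell. The authors had thus evened out the depth by a method not given in the sources used here, and the depth before correction is unknown. Corrected counts totalled 27887930, 29581504 and 24612481 in libraries 1, 2 and 3. Of 14192 cells, 287 were removed as suspected doublets and 13905 were kept. Libraries shared 26 to 35 cell barcodes in each pair. The haemoglobin gene Hbb-bs was found in 83.4% to 92.3% of the cells of every set on average, so RNA that cells do not make themselves was counted with them, and the share of each gene in glia is given as background.

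The 3 sets of cells, or gates, were cut on single genes. Dividing Insm1+ cells had Insm1, a zinc finger factor switched on briefly in newly committed neuronal progenitors, together with at least 2 of the division genes Mki67, Top2a, Cenpf and Birc5. Non-dividing Insm1+ cells had Insm1 and none of these 4 genes. The third set had Insm1 at 0 and both Gad2 and Stmn2, a tubulin-binding protein of growing neurites, above 0, and these are called Insm1- Gad2+Stmn2+ cells. The sets held 789, 808 and 767 cells, 2364 in all. Astrocytes with Aqp4 and Gja1 (3506 cells) and oligodendrocyte precursors, OPC, with Pdgfra and Lhfpl3 (2788 cells) gave the background. Cells that met the rule of a neuronal set and a background rule (172 cells) were placed in the neuronal set. They made up 2.52% to 11.4% of a neuronal set in single libraries. Another 65 cells met both background rules and were left out. Cells with Gad2, Stmn2 and no Insm1 were thus taken out of the background, which lowers its share of Gad2. Of the Insm1- Gad2+Stmn2+ cells, 42 had at least 2 division genes, so the third set was not free of dividing cells. The sets are taken in this order, and "later" refers to it. Whether cells pass from one set to the next was not tested.

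Dlx proteins are homeodomain transcription factors that direct progenitors of the ventral forebrain into the GABAergic interneuron fate, and Dlx1 and Dlx2 are known to act upstream of Dlx5 and Dlx6 through enhancers that lie between the paired genes. Sp8 and Sp9 are zinc finger factors needed by interneurons from the lateral and caudal ganglionic eminences, including those that migrate along the rostral stream to the olfactory bulb. Gad1 and Gad2 encode the GAD67 and GAD65 forms of glutamic acid decarboxylase, the enzyme that makes GABA.

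The sets were described by markers of neuroblasts and inhibitory neurons. Dcx, Cd24a, Sox11 and Tubb3, genes of migrating neuroblasts, summed to 4901 to 5362 CPM in the 3 libraries of dividing Insm1+ cells, 7515 to 8565 CPM in non-dividing Insm1+ cells and 7872 to 8957 CPM in Insm1- Gad2+Stmn2+ cells, against 144 to 227 CPM in astrocytes and 454 to 497 CPM in OPC. CPM is the mean of corrected counts over cells, each scaled to a total of 1000000. The 4 markers of inhibitory neurons, Gad1 and Gad2 among them, summed to 296 to 324, 455 to 685 and 892 to 1009.6 CPM in the 3 sets in order, against 429.7 to 469.6 CPM in astrocytes and 185 to 209.8 CPM in OPC. By that sum dividing Insm1+ cells lay below astrocytes, and non-dividing Insm1+ cells overlapped them. Markers of other cells were also present. The 4 erythroid markers summed to 820 to 4958, 1783 to 11576 and 6776 to 13318 CPM in the 3 sets, against 4291 to 7657 CPM in astrocytes and 3338 to 7344.5 CPM in OPC, and library 2 was the highest in each set. In library 2 of the 2 later sets they exceeded the neuroblast markers. The part of this RNA in the differences between sets was not tested. The 5 astrocyte markers summed to 294 to 567, 636 to 840 and 531 to 1026 CPM in the 3 sets in order, against 10626 to 11269 CPM in astrocytes, and none was at 0. The 6 markers of excitatory neurons and their progenitors summed to 4.25 to 65.3, 42.0 to 396 and 1.20 to 45.8 CPM, with Eomes at 0 in the third set, and library 2 was the highest of the 3 in each set.

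On mm10 the 4 coding Dlx genes form 2 convergent pairs. Dlx1 (chr2:71528113-71533981, plus strand) and Dlx2 (chr2:71543408-71546754, minus strand) lie 9426 bases apart with their 3' ends toward each other. Dlx6 (chr6:6863334-6868568, plus strand) and Dlx5 (chr6:6877805-6882085, minus strand) lie 9236 bases apart in the same arrangement. Dlx6os1 (chr6:6820189-6871592, minus strand) covers all 5235 bases of Dlx6 on the other strand, and Dlx1as (chr2:71516454-71537891, minus strand) covers all 5869 bases of Dlx1. Whether strand was used in counting is not stated, so reads of Dlx6 and Dlx6os1, and of Dlx1 and Dlx1as, cannot be told apart with certainty. Sp9 (chr2:73271925-73284706), Gad1 (chr2:70553072-70602014), Gad2 (chr2:22622205-22693874) and Sp8 (chr12:118846329-118852576) are on the plus strand.

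Promoter windows of 300 bases, running from 250 bases before to 50 bases after an annotated start, were read from RefSeq on GRCm38.p6 for 7 of the 9 genes, 10 windows in all; Dlx5 and Dlx6 had no entry. The homeodomain core TAATT was searched on both strands, where it reads AATTA on the other, so that TAATTA counts on each strand. It stood in 27.03% of all 32851 windows, and 1.65% held at least 4 matches. Both windows of Dlx6os1 were in that upper range: the first below held 7 matches, a number reached in 0.14% of windows, and the second held 4. The Sp9 window held 2, and the windows of Dlx1, Dlx2, Gad1 and Gad2 held none. The 3 windows of Sp8 held 2, 1 and 0. The E-box CAGCTG, a palindrome, stood in the first Dlx6os1 window alone among the 10, and in 16.3% of all windows. A match describes letters only and shows no binding. Dlx6os1 is shown because it had the largest tested level difference between dividing and later cells. Gad2 had a larger log2 fold in the third set against dividing cells (1.61 against 1.33), untested because the third set was cut on it. Sp9 and Gad1 are shown because they were also higher in the non-dividing Insm1+ cells yet differ from Dlx6os1 and from each other in these letters. Capitals mark the homeodomain core on either strand and the E-box.
Dlx6os1, chr6:6869484-6869783, minus strand: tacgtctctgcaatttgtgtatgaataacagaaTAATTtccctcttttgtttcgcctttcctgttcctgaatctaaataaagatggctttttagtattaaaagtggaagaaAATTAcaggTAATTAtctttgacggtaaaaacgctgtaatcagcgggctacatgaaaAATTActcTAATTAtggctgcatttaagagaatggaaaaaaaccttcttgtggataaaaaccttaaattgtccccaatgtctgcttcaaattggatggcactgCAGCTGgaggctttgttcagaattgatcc
Dlx6os1, chr6:6861634-6861933, minus strand: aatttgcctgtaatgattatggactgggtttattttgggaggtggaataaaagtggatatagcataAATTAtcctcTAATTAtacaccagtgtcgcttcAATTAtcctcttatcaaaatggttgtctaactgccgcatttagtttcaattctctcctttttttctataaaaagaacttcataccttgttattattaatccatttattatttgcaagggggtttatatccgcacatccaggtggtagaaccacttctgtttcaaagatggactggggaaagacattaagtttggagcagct
Sp9, chr2:73271676-73271975, plus strand: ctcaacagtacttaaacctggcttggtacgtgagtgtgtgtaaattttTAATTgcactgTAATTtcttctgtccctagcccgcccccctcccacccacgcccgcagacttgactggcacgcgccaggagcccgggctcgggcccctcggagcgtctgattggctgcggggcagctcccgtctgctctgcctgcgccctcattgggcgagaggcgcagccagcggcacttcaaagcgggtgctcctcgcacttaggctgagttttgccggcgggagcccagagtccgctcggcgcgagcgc
Gad1, chr2:70561879-70562178, plus strand: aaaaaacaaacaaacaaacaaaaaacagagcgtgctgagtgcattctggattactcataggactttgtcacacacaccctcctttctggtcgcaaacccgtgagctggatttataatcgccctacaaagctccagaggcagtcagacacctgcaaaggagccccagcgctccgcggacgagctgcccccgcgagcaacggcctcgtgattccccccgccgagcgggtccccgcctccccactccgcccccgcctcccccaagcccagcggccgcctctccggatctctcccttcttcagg

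All 9 genes were found mainly in the 3 neuronal sets. The sets together held 76.8% of all Dlx1-positive cells (1891 of 2462), 77.7% of Dlx2-positive, 82.0% of Dlx5-positive, 83.7% of Dlx6-positive and 78.3% of Dlx6os1-positive cells. They held 80.2% of the Sp8-positive and 79.4% of the Sp9-positive cells, and 85.0% of the Gad2-positive cells, which the third set used. Gad1 was spread more widely, with 66.5% of its positive cells (781 of 1174) in the sets and 17% (199 cells) among OPC. Detection in background cells stayed low for the other genes, at 0% to 4.01% of cells in any library of astrocytes and 0% to 2.39% in OPC, although median detected genes were 2764.5 and 2653 there, against 2880, 1912.5 and 1673 in the 3 neuronal sets in order. Dlx6 was found in 0 of 973 astrocytes of library 3, where 3 counts of the total would be 0.308% of cells with the RNA detected, and Sp8 in 0 of 893 OPC of library 1, where they would be 0.336%.

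**Figure D1:**
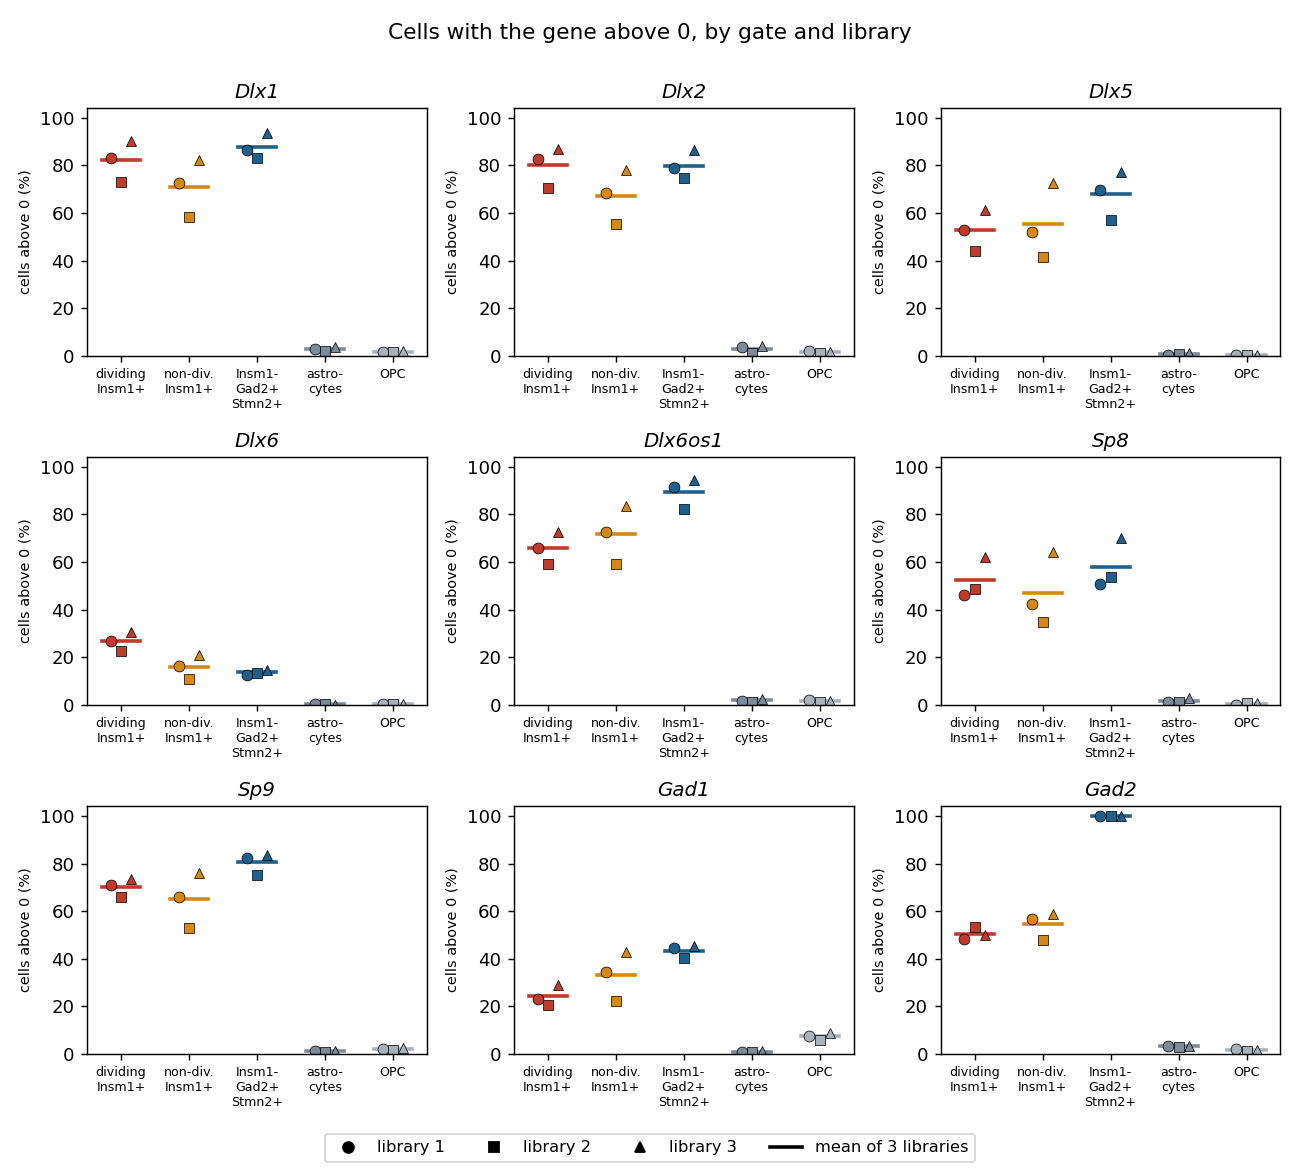
Share of cells with a value above 0, in percent, for each of the 9 genes in dividing Insm1+ cells, non-dividing Insm1+ cells, Insm1- Gad2+Stmn2+ cells, astrocytes and OPC; symbols are the 3 libraries and lines their means. Every gene stood above both background sets in every library of the neuronal sets, with Dlx6 at 13.5% to 26.7% on average and Gad2 at 100% in the third set because the set was cut on it.

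Every gene was also higher in level than in background. Levels were compared as log2(mean CPM + 10) of each set in each library with limma, with library as a block and p-values adjusted by the Benjamini-Hochberg method over all genes tested, and a gene was called at an adjusted p of at most 0.05. Against the mean of astrocytes and OPC, 9 of 9 genes were called higher in dividing Insm1+ cells, where 35% of 9186 tested genes were. In non-dividing Insm1+ cells it was 9 of 9, where 23.1% of 9186 genes were called higher. In Insm1- Gad2+Stmn2+ cells it was 8 of 8, without Gad2, where 21.8% of 9184 genes were. Gad2 was tested in both Insm1+ sets, although the cut had taken cells with Gad2 and Stmn2 out of the background. Its fold over background there is thus in part raised by the cut. The log2 fold over background ran between 2.07 for Gad1 and 5.36 for Dlx1 in dividing cells, between 2.23 for Dlx6 and 5.82 for Dlx6os1 in non-dividing Insm1+ cells, and between 2.10 for Dlx6 and 6.15 for Dlx6os1 in the third set. These levels mix how many cells of a set had the RNA with how much each had, so the shares are given beside them. Capture differs between transcripts, so the levels of different genes are not ranked against each other here.

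Between the neuronal sets the differences were smaller, and Dlx6 was the one gene called lower. In non-dividing against dividing Insm1+ cells, 4 of 9 genes were higher (Dlx6os1, Gad2, Gad1, Sp9), where 16.6% of 9190 genes were called higher, and Dlx6 alone was lower, where 28.7% were. In Insm1- Gad2+Stmn2+ cells against non-dividing Insm1+ cells, 3 of 8 were higher (Gad1, Dlx1, Dlx6os1), where 1.57% of 9188 genes were called higher, and 0 were lower, where 3.31% were; at an unadjusted p under 0.05 limma had 7 of 8 higher and 0 lower. Leaving out 1 library changed these 3 calls: limma called 0 of 8 without library 1 and 0 without library 2 (3 higher and 0 lower, and 3 higher and 1 lower, at an unadjusted p under 0.05), and 6 without library 3. It also called 0 of 8 with a pseudocount of 1 CPM, with no filter on low levels and without the library block. Over the whole span, in the third set against dividing cells, 6 of 8 were higher (Dlx6os1, Gad1, Sp9, Dlx1, Dlx5, Sp8), where 17.3% of 9188 genes were, and Dlx6 was lower, where 39.0% were. The median log2 fold of the tested genes among the 9 was 0.30, 0.33 and 0.59 in these 3 comparisons, beside -0.10, -0.06 and -0.18 over all genes tested. Scaling moved the medians of all genes: without scaling of the corrected counts they shifted by -0.18, -0.01 and -0.18, and after centring on the median gene by 0.22, 0.09 and 0.31. The 3 comparisons share their sets, so they are not independent of each other.

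**Figure D2:**
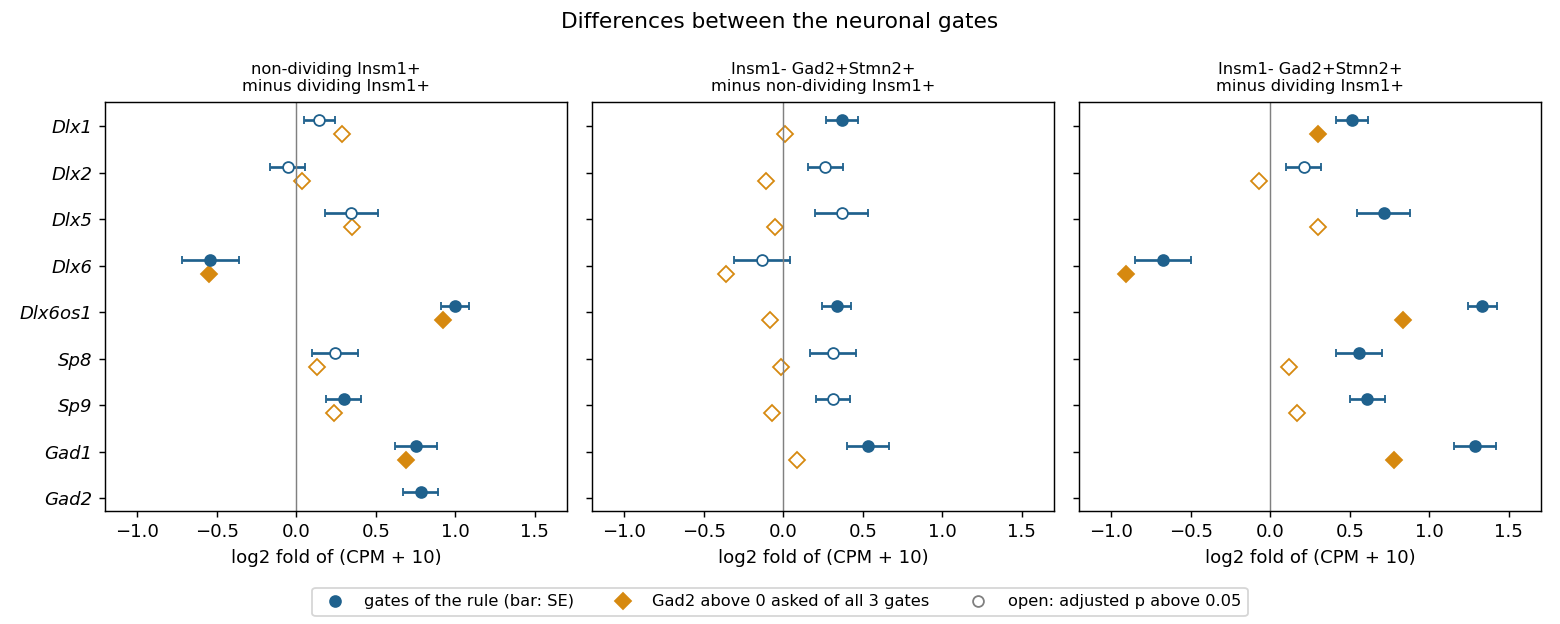
Log2 fold of (CPM + 10) of each gene for non-dividing against dividing Insm1+ cells, Insm1- Gad2+Stmn2+ against non-dividing Insm1+ cells, and Insm1- Gad2+Stmn2+ against dividing Insm1+ cells; circles with bars are the limma fold and 1 SE, diamonds the fold when Gad2 was asked of all 3 sets, and open symbols have an adjusted p above 0.05. Dlx6os1 (1.33) and Gad1 (1.29) lie farthest to the higher side over the whole span and Dlx6 (-0.67) lies on the lower side; Gad2 is not drawn where a set was cut on it.

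Dlx1 and Dlx2, the earlier acting pair, were present in most cells of all 3 sets. Dlx1 was found in 83.2%, 73.1% and 90.4% of dividing Insm1+ cells in libraries 1, 2 and 3, in 72.6%, 58.1% and 82.4% of non-dividing Insm1+ cells, and in 86.6%, 83.1% and 93.8% of Insm1- Gad2+Stmn2+ cells, against means of 2.76% in astrocytes and 1.59% in OPC. Its level was 601, 558 and 568 CPM in dividing cells, 625, 525 and 789 CPM in non-dividing Insm1+ cells and 792, 766 and 931 CPM in the third set. Library 3 held the largest share of Dlx1-positive cells and library 2 the smallest in each set, and levels in the third set did not overlap those of dividing cells. Dlx1 was higher there by 0.52 on the log2 scale (SE 0.10, limma adjusted p 0.00039, 3 of 3 libraries) and higher than in non-dividing Insm1+ cells by 0.37 (SE 0.10, limma adjusted p 0.0438), while the difference of 0.15 between non-dividing and dividing Insm1+ cells was not called (limma adjusted p 0.244). Without scaling of the corrected counts the fold over the whole span was 0.22 (limma adjusted p 0.0575) and that between non-dividing and dividing Insm1+ cells was -0.13. With 2000 to 3500 detected genes per cell the whole-span fold was -0.31 (limma adjusted p 0.289).

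Dlx2, which lies beside Dlx1, was found in 82.7%, 70.5% and 86.8% of dividing Insm1+ cells, in 68.2%, 55.3% and 78.1% of non-dividing Insm1+ cells and in 78.7%, 74.6% and 86.3% of Insm1- Gad2+Stmn2+ cells. It had 510.4, 428 and 519.6 CPM in dividing cells, 464, 350 and 622 CPM in non-dividing Insm1+ cells and 551, 498 and 645 CPM in the third set. These ranges overlapped in all 3 sets, and Dlx2 was not called in any comparison between neuronal sets: its log2 folds were -0.05, 0.26 and 0.21 in the 3 comparisons in order, with limma adjusted p of 0.713, 0.180 and 0.117. Its sign depended on the scaling: the first fold was -0.31 without scaling of the corrected counts (limma adjusted p 0.0285) and 0.17 after centring on the median gene (limma adjusted p 0.260), and the last was -0.07 and 0.52 (limma adjusted p 0.622 and 0.00144). In dividing cells 93% of Dlx1-positive cells also had Dlx2, against 85.6% in non-dividing Insm1+ cells and 84.8% in the third set.

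Dlx5 and Dlx6, the neighbouring pair on chromosome 6, differed in direction over the whole span. Dlx5 was found in 53.0%, 43.9% and 61.4% of dividing Insm1+ cells, 52.2%, 41.5% and 72.7% of non-dividing Insm1+ cells and 69.8%, 57.0% and 77.0% of Insm1- Gad2+Stmn2+ cells. Its level was 185, 179.6 and 262 CPM, then 235, 178 and 437 CPM, then 323, 273 and 461 CPM in the same order of sets. The level in the third set lay above all libraries of dividing cells, while non-dividing Insm1+ cells overlapped both, with library 3 far above the other two. Dlx5 was higher in the third set than in dividing cells by 0.71 on the log2 scale (SE 0.17, limma adjusted p 0.00189), and its folds over the single steps, 0.35 and 0.37, were not called (limma adjusted p 0.103 and 0.219). The whole-span call was lost with Gad2 asked of all 3 sets (limma adjusted p 0.0853) and with 2000 to 3500 detected genes per cell (0.736).

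Dlx6 was the least often detected of the 9 in the later sets and the only one called lower outside the dividing cells. It was found in 26.8%, 22.7% and 30.7% of dividing Insm1+ cells, 16.3%, 10.7% and 20.9% of non-dividing Insm1+ cells and 12.7%, 13.4% and 14.6% of Insm1- Gad2+Stmn2+ cells. The means in background were 0.131% of astrocytes and 0.252% of OPC, so the shares in all 3 sets stood far above it. The level of Dlx6 was 62.8, 50.5 and 69.4 CPM in dividing cells, 42.7, 21.9 and 57.7 CPM in non-dividing Insm1+ cells and 31.6, 35 and 36 CPM in the third set. Each library had less Dlx6 in non-dividing than in dividing Insm1+ cells, and the third set lay wholly below dividing cells. Dlx6 fell by 0.54 in non-dividing against dividing Insm1+ cells (SE 0.18, limma adjusted p 0.0210) and by 0.67 in the third set against dividing cells (SE 0.18, limma adjusted p 0.00444) on the log2 scale. The first of these calls was lost with a pseudocount of 1 CPM, with no filter on low levels, without library 1, without library 2, after centring on the median gene and with 1 division gene enough for the dividing set, at limma adjusted p of 0.0516 to 0.163. It was also lost with Gad2 asked of all 3 sets among cells with 2000 to 3500 detected genes (limma adjusted p 0.299). The second was lost without library 1 (limma adjusted p 0.0883), with centring (0.0989) and with 2000 to 3500 detected genes (0.0778), and the fold stayed below 0 in all these settings. Its share across Insm1+ cells with 0, 1, 2, 3 and 4 division genes was 15.9%, 18.5%, 22.7%, 18.4% and 30.2%. Median detected genes rose from 1912.5 to 2940 across the same cells.

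Dlx6os1, also called Evf2, is a long noncoding RNA known in mouse to take part in the control of Dlx5, Dlx6 and Gad1 by DLX proteins. Its fold had the opposite sign to that of Dlx6, the gene it overlaps. It was found in 65.7%, 59.1% and 72.8% of dividing Insm1+ cells, 72.8%, 59.3% and 83.4% of non-dividing Insm1+ cells and 91.4%, 82.4% and 94.4% of Insm1- Gad2+Stmn2+ cells. Its level was 399.8, 334 and 392 CPM in dividing cells, 835, 592 and 876 CPM in non-dividing Insm1+ cells and 1034, 869.7 and 979.5 CPM in the third set. Dividing cells lay below both other sets in every library, while those 2 sets met at 876 CPM in library 3 of the first and 869.7 CPM in library 2 of the second. Dlx6os1 was higher by 1.00 on the log2 scale in non-dividing than in dividing Insm1+ cells (SE 0.09, limma adjusted p 1.91e-07), by 0.34 in the third set than in non-dividing Insm1+ cells (SE 0.09, limma adjusted p 0.0435) and by 1.33 over the whole span (SE 0.09, limma adjusted p 4.54e-09). Because the strand of the reads is not known, the opposite signs of Dlx6 and Dlx6os1 are those of the authors' assignment of reads to the 2 genes.

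**Figure D3:**
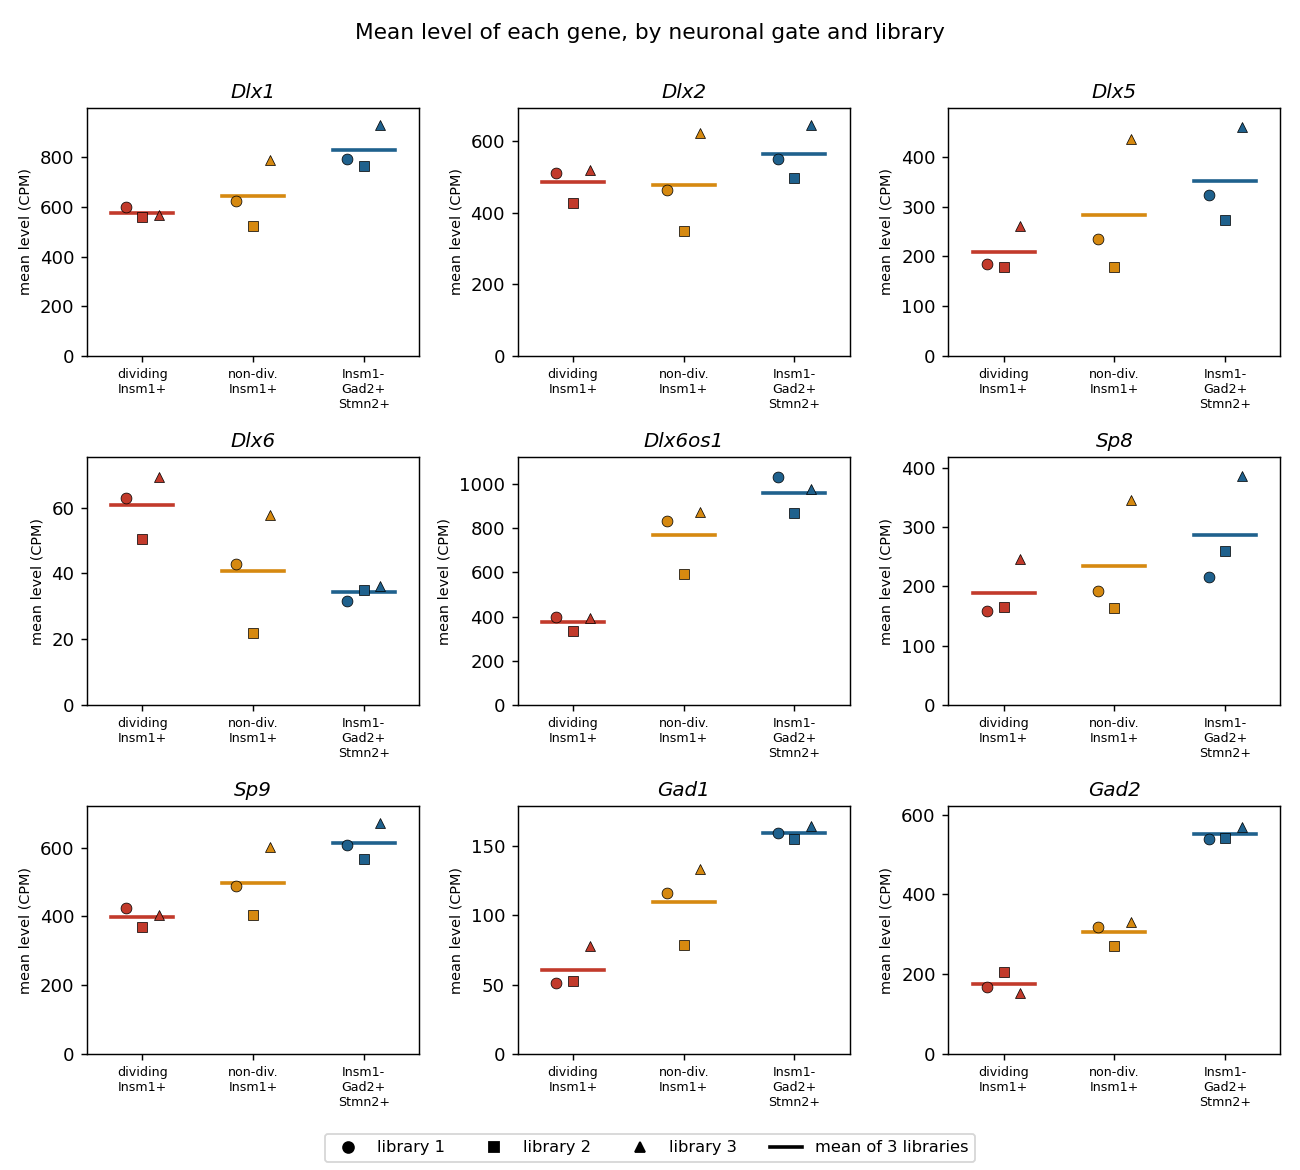
Mean level of each gene in CPM (mean of scaled corrected counts, linear axis from 0) for dividing Insm1+ cells, non-dividing Insm1+ cells and Insm1- Gad2+Stmn2+ cells; symbols are the 3 libraries and lines their means. Dlx6os1 and Gad1 lie higher in each later set in all 3 libraries, the sets overlap for Dlx2 and Sp8, and Dlx6 lies lower in the third set, at 31.6 to 36 CPM, than in dividing cells, at 50.5 to 69.4 CPM.

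Sp9 and Sp8 were both called higher in the third set than in dividing cells. Sp9 was found in 71.0%, 65.9% and 73.7% of dividing Insm1+ cells, 66.0%, 53.0% and 75.9% of non-dividing Insm1+ cells and 82.5%, 75.4% and 83.5% of Insm1- Gad2+Stmn2+ cells. It had 425, 369 and 403 CPM in dividing cells, 489, 404 and 602 CPM in non-dividing Insm1+ cells and 607, 567 and 671 CPM in the third set, which did not overlap the dividing cells. Sp9 was higher in non-dividing than in dividing Insm1+ cells by 0.30 on the log2 scale (SE 0.11, limma adjusted p 0.0364) and in the third set than in dividing cells by 0.61 (SE 0.11, limma adjusted p 0.000207). The first call was lost when any 1 library was left out (limma adjusted p 0.0539 to 0.225), with a pseudocount of 1 CPM, without the filter, without the block, with Gad2 asked of all 3 sets and without scaling of the corrected counts, where the fold was 0.05. With 2000 to 3500 detected genes per cell the fold was -0.41 in the first comparison and -0.15 in the second, neither called, and the second call was also lost with Gad2 asked of all 3 sets (limma adjusted p 0.206).

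Sp8 was found in fewer cells and varied more between libraries. It was found in 46.2%, 48.5% and 62.3% of dividing Insm1+ cells, 42.4%, 34.8% and 64.2% of non-dividing Insm1+ cells and 50.7%, 53.5% and 70.0% of Insm1- Gad2+Stmn2+ cells. Its level was 157, 165 and 246 CPM, then 192, 164 and 347 CPM, then 215, 259.6 and 386 CPM in the same order of sets. Library 3 stood apart at the top of each set, and the sets overlapped. With library as a block, Sp8 was higher in the third set than in dividing cells by 0.56 on the log2 scale (SE 0.14, limma adjusted p 0.00381), and the 2 single steps, 0.25 and 0.32, were not called (limma adjusted p 0.179 and 0.221). The call was lost without the block (limma adjusted p 0.0590) and without scaling of the corrected counts (0.0698). It was also lost with Gad2 asked of all 3 sets (limma adjusted p 0.464) and with 2000 to 3500 detected genes per cell (0.867), where the fold was -0.07.

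The levels of Gad1 in the 3 sets did not overlap. It was found in 22.9%, 20.5% and 28.9% of dividing Insm1+ cells, 34.2%, 22.1% and 42.8% of non-dividing Insm1+ cells and 44.4%, 40.1% and 45.4% of Insm1- Gad2+Stmn2+ cells, against 0.861% of astrocytes and 7.31% of OPC on average. Its level was 51.1, 52.5 and 77.6 CPM in dividing cells, 116, 78.7 and 133 CPM in non-dividing Insm1+ cells and 159, 155 and 165 CPM in the third set, and no library of a set reached the next set. Gad1 was higher by 0.75 on the log2 scale in non-dividing than in dividing Insm1+ cells (SE 0.13, limma adjusted p 0.000224), by 0.53 in the third set than in non-dividing Insm1+ cells (SE 0.13, limma adjusted p 0.0313) and by 1.29 over the whole span (SE 0.13, limma adjusted p 6.14e-07). With 2000 to 3500 detected genes per cell the levels of all sets overlapped, and Gad1 was not called between them. They were 51.1, 56.3 and 69.8 CPM in dividing cells, 53.5, 36.8 and 106 CPM in non-dividing Insm1+ cells and 107, 44.5 and 117 CPM in the third set. The 0.53 was also not called with a pseudocount of 1 CPM, without the filter, without the block or with Gad2 asked of all 3 sets.

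Gad2 was found in 48.2%, 53.4% and 50% of dividing Insm1+ cells and in 56.5%, 47.8% and 58.8% of non-dividing Insm1+ cells, and in all cells of the third set, which was cut on it. Its level was 169, 204 and 152 CPM in dividing cells and 317, 272 and 331 CPM in non-dividing Insm1+ cells, with 541, 543 and 571 CPM in the third set. Shares of the first 2 sets overlapped while their levels did not. Gad2 was higher by 0.78 on the log2 scale in non-dividing than in dividing Insm1+ cells (SE 0.11, limma adjusted p 3.17e-05). Exact (Clopper-Pearson) 95% intervals of a share in a single library spanned 7.46 to 19.0 percentage points in dividing cells, 7.80 to 14.6 in non-dividing Insm1+ cells and 5.06 to 17 in the third set, and these intervals and the limits from counts of 0 cover counting error only. With 3 paired libraries an exact 2-sided p cannot go below 0.25, so shares were not tested.

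The third set was cut on Gad2 and the Insm1+ sets were not, so Gad2 was also asked of all 3 sets. That left 396 dividing Insm1+ cells, 439 non-dividing Insm1+ cells and 767 cells of the third set. Among them Dlx1 was found in 96.0%, 87.8% and 87.8%, Dlx2 in 92.1%, 85.7% and 79.9%, and Sp9 in 88.5%, 85.0% and 80.4%. Dlx6 was found in 34.0%, 19.5% and 13.5%, Dlx6os1 in 87.6%, 93.4% and 89.4%, and Gad1 in 34.4%, 44.2% and 43.3%. In the third set against non-dividing Insm1+ cells, limma then called 0 of 8 genes, with 0 higher and 1 lower at an unadjusted p under 0.05. In non-dividing against dividing Gad2+ cells, Dlx6os1 (0.92 on the log2 scale), Gad1 (0.69) and Dlx6 (-0.55) were called. In the third set against dividing Gad2+ cells, Dlx6os1 (0.84), Gad1 (0.78), Dlx1 (0.30) and Dlx6 (-0.91) were called. Insm1+ cells without Gad2 still had Dlx1 in 67.8% of dividing and 52.4% of non-dividing cells, and Gad1 in 13.6% and 20.3%.

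Some cells of the sets carried genes of excitatory neurons. Eomes, Neurod2, Neurod6 or Tbr1 was above 0 in 3.65%, 11.7% and 0.877% of dividing Insm1+ cells in libraries 1, 2 and 3, in 8.70%, 26.1% and 2.14% of non-dividing Insm1+ cells and in 1.87%, 2.82% and 0.280% of Insm1- Gad2+Stmn2+ cells. Library 2, lowest for most of the 9 genes, was highest for these cells in each set. Of the 47, 102 and 10 such cells, 20, 25 and 4 had any Dlx gene. Without them Dlx1 was found in 84.2%, 78.5% and 88.7% of cells on average, and 8 of 9 genes were called in non-dividing against dividing Insm1+ cells, with Dlx1 (0.29 on the log2 scale), Dlx5 (0.45) and Sp8 (0.36) added, while 0 of 8 were called in the third set against non-dividing Insm1+ cells, with 3 higher and 0 lower at an unadjusted p under 0.05 in limma.

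Detected genes per cell differed between the sets, and cells with 2000 to 3500 of them were also compared. These were 680 dividing Insm1+ cells, 310 non-dividing Insm1+ cells and 142 cells of the third set, and Dlx1 was found in 85.1%, 56.0% and 71.6% of them. Their median detected genes were 2919.5, 2374.5 and 2411.5, so this window narrowed the difference between the sets without removing it. Markers of other cells differed between these sets, not all alike. Aqp4 was found in 8.05%, 16.3% and 31.6% and Olig1 in 17.8%, 33.9% and 34.0% of the same cells, and Gja1 ran likewise. Olig1, an oligodendrocyte lineage factor, was also in 86.01% of astrocytes with that many detected genes. Pdgfra was found in 8.77%, 13.3% and 8.65%, and Lhfpl3 was also highest in non-dividing Insm1+ cells. Slc1a3 was found in 54.6%, 52.3% and 49.4%, while its level was 205, 476 and 790 CPM. Hbb-bs was found in 83.2%, 85.4% and 82.1%. Of the 9 genes, only Dlx6 was then called in non-dividing against dividing Insm1+ cells (-0.62 on the log2 scale, limma adjusted p 0.0447), and 0 of 8 in each of the other comparisons between neuronal sets. At an unadjusted p under 0.05 limma had 0 in the third set against non-dividing Insm1+ cells, and 1 higher and 1 lower in the third set against dividing cells. Dlx6os1 had 0.42 (limma adjusted p 0.134) in the first comparison and 0.45 (limma adjusted p 0.0884) over the whole span. With Gad2 also asked of all 3 sets among these cells, an alternative added after seeing the data, Dlx6os1 (0.80) was called higher in non-dividing against dividing cells, while in the third set Dlx6os1 (-0.81) and Dlx2 (-0.58) were called lower against non-dividing cells and Dlx6 (-0.73), Dlx2 (-0.65) and Sp9 (-0.55) against dividing cells. The part that markers of other cells and detected genes had in these differences was not tested.

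Within single cells the genes were nested. In dividing Insm1+ cells, Dlx1 or Dlx2 was found in 85.8% ± 8.96 of cells (SD, n = 3 libraries) and Dlx5 or Dlx6 in 59.6% ± 9.65. Dlx1 or Dlx2 without Dlx5 and Dlx6 was found in 28.2%, 26.5% and 24.6% of cells of libraries 1, 2 and 3, and Dlx5 or Dlx6 without Dlx1 and Dlx2 in 0.487%, 0.379% and 0%, where 0 of 114 cells were seen. Cells of the second pair thus almost always had the first pair in each library. The difference between such a pair of shares equals the difference between the overall shares, so only the size of the reverse share adds to what the overall shares show.

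Dlx1 or Dlx2 without Dlx6os1 was found in 20.5% ± 2.05 of dividing Insm1+ cells and the reverse in 0.541% ± 0.570, and without Sp8 and Sp9 in 11.3% ± 1.96 and the reverse in 1.24% ± 1.15. Dlx1 or Dlx2 without either Gad gene was found in 35%, 21.2% and 33.3% of dividing cells of libraries 1, 2 and 3, with the reverse in 1.37% on average. For Gad1 alone the shares were 62.0% and 0.324%. Sp8 or Sp9 without either Gad gene was found in 21.6%, and the reverse in 3.23%. Dlx6os1 without Dlx5 and Dlx6 (13.2%) and the reverse (7.0%) were closer, so neither group of these overlapping and neighbouring transcripts was nested in the other.

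Reverse shares were also small in the later sets. Dlx1 or Dlx2 without Dlx5 and Dlx6 was found in 18.9% of non-dividing Insm1+ cells, with the reverse in 1.07%, and in 23.7% of Insm1- Gad2+Stmn2+ cells, with the reverse in 1.12%. Dlx1 or Dlx2 without Dlx6os1 was found in 7.05% and 4.95%, with the reverse in 1.61% and 1.23%. Without either Gad gene it was found in 16.7% of non-dividing Insm1+ cells, with the reverse in 2.59%. Thinning each cell to 4000 corrected counts gave 31.9%, 23.5% and 27.5% for Dlx1 or Dlx2 without Dlx5 and Dlx6 in the 3 sets in order, and 1.04%, 0.892% and 1.15% for the reverse. Transcripts are captured with different efficiency, so the order of detection is not the order in which the genes were switched on.

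**Figure D4:**
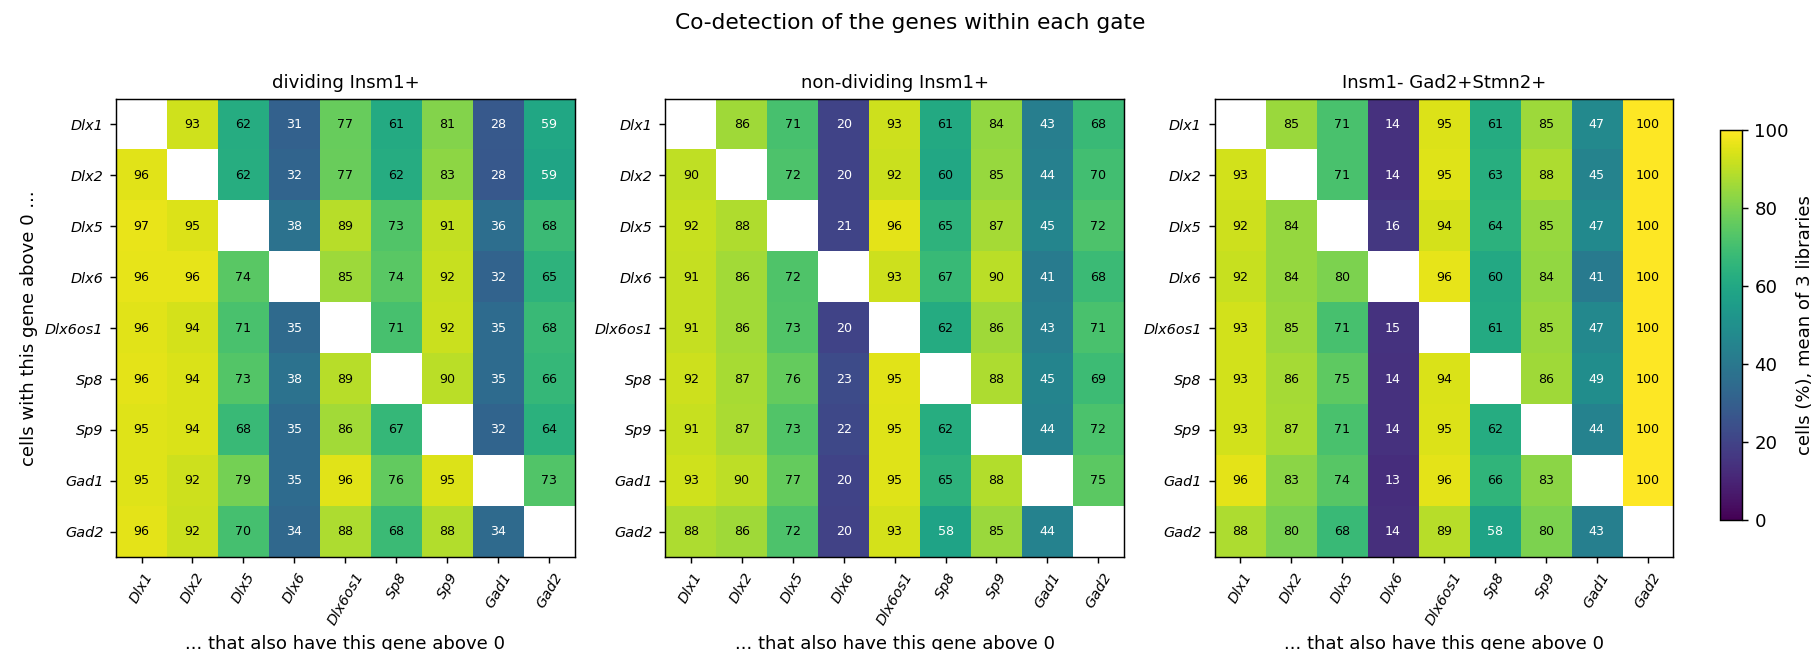
Of the cells with the row's gene above 0, the percent that also had the column's gene above 0, as the mean of 3 libraries (colour and printed value), in dividing Insm1+ cells, non-dividing Insm1+ cells and Insm1- Gad2+Stmn2+ cells. Columns of Dlx1 and Dlx2 are high for every row and the column of Dlx6 is low; of dividing cells with Gad1, 79.0% had Dlx5, while of those with Dlx5, 36% had Gad1, and the Gad2 column of the third set is 100% because the set was cut on it.

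Pairs of genes met in the same cells more often than the product of their shares in the Insm1+ sets. Leaving out Gad2, the ratio of the joint share to that product ran between 1.16 for Dlx1 with Sp9 and 1.53 for Dlx5 with Gad1 in dividing cells, between 1.30 for Dlx1 with Dlx2 and 1.47 for Dlx6 with Sp8 in non-dividing Insm1+ cells, and between 0.952 for Dlx6 with Gad1 and 1.18 for Dlx5 with Dlx6 in the third set. A ratio above 1 arises also where a set mixes cells with and without the whole group or cells of different depth. Of the Gad1-positive dividing cells, 95.5% ± 3.55 had Dlx6os1, 94.7% ± 0.931 had Sp9 and 79.0% ± 2.45 had Dlx5, and the lowest library reached 91.5%, 93.9% and 76.6%. Of the Dlx5-positive dividing cells, 36% ± 2.63 had Gad1, against 45.3% ± 5.45 in non-dividing Insm1+ cells and 47.4% ± 1.57 in the third set.

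Counting the 8 genes other than Gad2, a cell had 4.54 ± 0.515 of them on average in dividing Insm1+ cells (SD, n = 3 libraries), 4.27 ± 0.928 in non-dividing Insm1+ cells and 5.20 ± 0.428 in Insm1- Gad2+Stmn2+ cells, against 0.118 in astrocytes and 0.149 in OPC. None of the 8 was found in 12.7%, 20.5% and 4.84% of cells of the 3 sets, against 90.3% of astrocytes and 86.2% of OPC. At least 5 were found in 60.6%, 61.4% and 76.4%, and all 8 in 4.99%, 3.67% and 2.46%. Most cells thus had either none or at least 5 of the 8, and non-dividing Insm1+ cells held the largest share without any.

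The number of division genes per Insm1+ cell gave a finer series, from 808 cells with 0 through 169, 110 and 150 cells with 1, 2 and 3 to 529 cells with 4. Median detected genes rose along it, at 1912.5, 2387, 2541, 2717 and 2940, and their part in the shares was not tested. Dlx1 was found in 71.0%, 73.9%, 73.5%, 77.7% and 85.3% along it. Gad1 was found in 33.1%, 19.8%, 18%, 16.1% and 28%, and Dlx6os1 in 71.8%, 70.7%, 51.6%, 59.9% and 70.7%. Gad1 was lower with 1, 2 or 3 division genes than with 0 or 4, and Dlx6os1 was lowest with 2 or 3. Gad2 ran likewise, at 54.4%, 50.2%, 36.6%, 47.0% and 54.6%.

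Genes known to lie upstream or downstream of the Dlx factors were counted from fixed lists, and up to 3 of each list are named by the size of their fold. The share of all genes called higher and lower, given above, was 16.6% and 28.7% in the first comparison, 1.57% and 3.31% in the second and 17.3% and 39.0% over the whole span. Of 10 upstream and progenitor factors, 0 were higher and 8 lower in non-dividing against dividing Insm1+ cells (median log2 fold -0.66), 0 and 4 in the third set against non-dividing Insm1+ cells, and 0 and 9 in the third set against dividing cells (median -1.22). In non-dividing against dividing Insm1+ cells Gsx2, a homeobox factor of the lateral ganglionic eminence, fell by 1.78 on the log2 scale and Helt, a bHLH repressor, by 1.28. Gsx2 fell by 2.43 and Helt by 2.35 in the third set against dividing cells. Of 10 DNA replication genes, 10 were lower in non-dividing against dividing Insm1+ cells and 10 in the third set against dividing cells (medians -1.89 and -2.52), and 7 in the third set against non-dividing Insm1+ cells. These include Lig1 (-2.41), Hells (-2.25) and Pcna (-2.01) in the first of these comparisons. The dividing set was cut on other division genes, so lower replication genes outside it largely follow from that cut.

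Of 16 listed partners and targets of DLX proteins, 10 were tested. Of these, 3 were higher and 1 lower in non-dividing against dividing Insm1+ cells (median -0.15), 1 and 1 in the third set against non-dividing Insm1+ cells (median 0.11), and 4 and 2 in the third set against dividing cells (median 0.04). Erbb4, a neuregulin receptor of interneurons, had log2 folds of 0.90 and 1.49 in the first and last of these comparisons. Gpd1, a metabolic enzyme, fell by 1.15 over the whole span, and Ackr3, a CXCL12 receptor, by 0.81 in non-dividing against dividing Insm1+ cells. Dlx1as averaged 28.2, 22.9 and 20.5 CPM and was not called.

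GABA handling genes beyond the Gad pair were mostly higher in the later sets than in dividing Insm1+ cells. Of 6 tested, 4 were higher and 0 lower in non-dividing against dividing Insm1+ cells (median 0.67), 1 and 0 in the third set against non-dividing Insm1+ cells, and 5 and 1 in the third set against dividing cells (median 0.89). Gabbr1, a GABA-B receptor subunit, had log2 folds of 1.04 in the first and 1.11 in the last. Slc32a1, the vesicular GABA transporter, was called over the whole span alone (0.95).

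Genes of the 3 ganglionic eminences were counted next. Of 10 tested genes of the lateral ganglionic eminence and olfactory bulb interneurons, 6 were higher and 0 lower in non-dividing against dividing Insm1+ cells (median 0.71), 1 and 1 in the third set against non-dividing Insm1+ cells, and 5 and 1 in the third set against dividing cells (median 0.80). Calb2, calretinin, had 1.59 and Prokr2, the prokineticin receptor, 1.34 in the first, and Robo2, a Slit receptor, 1.32. Meis2, a homeodomain factor, was found in 85.1%, 88.5% and 96.7% of the 3 sets. Of 5 tested caudal genes, 2 were higher in the first comparison, 1 in the second and 3 in the last, with 0 lower; Htr3a, a serotonin receptor channel, had 2.10 and 2.26 and Adarb2, an RNA-binding protein, 0.85 and 2.11 in the first and last. Of 3 tested medial genes, 0 were called in the first comparison and Sox6 alone in the others (-0.82 and -0.87). Sox6 was also called lower in each neuronal set than in astrocytes and OPC, so it was not particular to interneurons here. Lhx6, the defining factor of medial interneurons, was found in 0.292%, 0.181% and 0% of cells of the 3 sets, and Nkx2-1 in 0.292%, 0.362% and 0%.

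Of 12 migrating neuroblast genes, 9 were higher and 1 lower in non-dividing against dividing Insm1+ cells (median 0.68), 1 and 1 in the third set against non-dividing Insm1+ cells, and 10 and 0 in the third set against dividing cells (median 0.79), with Stmn4 (1.59), Dcx (1.13) and Tubb3 (1.09) named in the first. Of 3 tested excitatory genes, Tbr1 (1.58) and Neurod6 (1.56) were higher and Emx2 (-0.67) lower in non-dividing against dividing Insm1+ cells, Neurod6 (-1.79) and Tbr1 (-1.37) were lower in the third set against non-dividing Insm1+ cells, and Emx2 (-0.78) was lower over the whole span. The part of the cells with excitatory genes, counted above, in these folds was not tested.

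The likeness of other genes to the 9 was read from Pearson's r of log2(mean CPM + 10) over the 15 means of 5 sets in 3 libraries, among 9176 genes. Because background and neuronal sets both enter, any gene that separates neurons from glia scores high, so r describes these 15 points and no more. Dlx1 and Dlx2 were most like the same 3 genes, Cyth2 (r 0.992 and 0.993), Kctd13 and Cd24a. Dlx6 was most like Dlx1as (r 0.990), the antisense transcript of the other Dlx locus, and then Trim36 and Foxo6. Dlx6os1 and Gad2 were each most like Nrep (r 0.994 and 0.996). Sp9 was most like Cd24a (r 0.994), Sp8 like Rnd3 (r 0.986), Dlx5 like Msra (r 0.989) and Gad1 like Nrxn3 (r 0.992).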

How the data were processed

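Single-cell expression was measured in 3 libraries of 1 group. CASAVA 1.8, Cell Ranger, Seurat and the build mm10 are named in the submitters' processing notes. The authors deposited natural log values: undoing ln(1 + x) gave 34958786 whole numbers, within 1e-06, called corrected counts. Their depth correction is not given in the sources used here, so no count model was fitted. Suspected doublets were called per library with Scrublet in scanpy 1.11.5 (seed 0). Cells were scaled to CPM and averaged per gate and library. On these averages, as log2(mean + 10 CPM), limma 3.58.1 (R 4.3.3) fitted a trend with library as a block and 8 residual degrees of freedom, over genes averaging 10 CPM or more. In the main fit all sets entered together, so astrocytes and OPC are part of the spread used for every comparison. The pseudocount draws folds of weakly expressed genes toward 0. Benjamini-Hochberg adjustment ran over all genes tested. Gate genes had no test in comparisons of their gates. The pipeline was tested on simulated data. Every library held every gate, so the library is the pair, and that pairing comes from the design. The 9 genes were named throughout. From each list of related genes, up to 3 with the largest fold among those called and moving alike in 3 of 3 libraries were named, or fewer where stated, and Dlx1as, Meis2, Lhx6 and Nkx2-1 were added after their values were seen. Some listed genes are counted but not reported by name here. The genes and lists were chosen with earlier results of these data known. Alternatives were the pseudocount, the filter, the block, each library left out, scaling, centring, doublets, the gate definitions, detected genes per cell and thinning to 4000 corrected counts (seed 1). Python 3.11.15, numpy 2.4.6, scipy 1.17.1 and pandas 2.3.3 were used.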

Additional observations from a re-analysis of the deposited data

How the results depend on the processing

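All values below are from limma with Benjamini-Hochberg adjustment, as members called or as log2 folds, and where a result changed the cause was not tested. Against background, every gene tested was called higher under every alternative run, 9, 9 and 8 genes in the 3 sets in order, or 8 in each set where Gad2 was asked of all and so not tested. In non-dividing against dividing Insm1+ cells, 5 of 9 genes were called; 3 were with a pseudocount of 1 CPM, 3 with no filter on low levels, 3 of 8 with Gad2 in all sets, 8 without cells with an excitatory gene, 1 with 2000 to 3500 detected genes and 3 to 4 without 1 library. In the third set against non-dividing Insm1+ cells, 3 of 8 were called, and 0 were with a pseudocount of 1 CPM, no filter, no replicate block, Gad2 in all sets, no cells with an excitatory gene or 2000 to 3500 detected genes. Of the 8, limma then had 3, 5, 4, 0, 3 and 0 higher and 0, 0, 0, 1, 0 and 0 lower at an unadjusted p under 0.05. It called 1 without scaling of the corrected counts and 0 to 6 without 1 library. In the third set against dividing cells, 7 of 8 were called, and 4 were with Gad2 in all sets, 0 with 2000 to 3500 detected genes (1 higher and 1 lower at an unadjusted p under 0.05) and 6 to 7 without 1 library. An alternative added after seeing the data, Gad2 in all sets with 2000 to 3500 detected genes, gave 1 of 8 higher and 0 lower in the first comparison, but 0 higher with 2 lower of 8 in the second and 0 higher with 3 lower of 8 in the last, where most calls had been higher. Without the replicate block, that is without pairing cells of a library, 4 of 9, 0 of 8 and 6 of 8 were called.

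Over all genes tested, 4163, 448 and 5172 were called in the 3 comparisons. In the second it was 186 with no filter, 286 without the block, 15, 21 and 753 without library 1, 2 and 3, 673 with 2000 to 3500 detected genes and 1839 with the added alternative. In the first it was 2741 without library 1, 2466 with 2000 to 3500 detected genes and 1437 with the added alternative, and in the last 2961 with the added alternative.

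Some folds changed sign. In non-dividing against dividing Insm1+ cells, Dlx1 had -0.015 to 0.26 without 1 library, below 0 without library 3, and -0.13 without scaling, where Sp8 had -0.0024. Dlx2 had -0.21 to 0.060 without 1 library, above 0 without library 2, 0.17 with centring, 0.057 without cells with an excitatory gene and 0.037 with Gad2 in all sets. With 2000 to 3500 detected genes Dlx1 had -0.43, Dlx5 -0.21, Sp8 -0.60 and Sp9 -0.41, and with the added alternative Sp8 had -0.33 and Sp9 -0.050. In the third set against non-dividing Insm1+ cells, Dlx6 had -0.45 to 0.077 without 1 library, above 0 without library 3, and 0.12 with 2000 to 3500 detected genes. With Gad2 in all sets Dlx2 had -0.11, Dlx5 -0.051, Dlx6os1 -0.083, Sp8 -0.013 and Sp9 -0.070. The added alternative gave Dlx1 -0.58, Dlx2 -0.58, Dlx5 -0.44, Dlx6os1 -0.81, Sp8 -0.16, Sp9 -0.50 and Gad1 -0.24. In the third set against dividing cells, Dlx2 had -0.066 without scaling and -0.070 with Gad2 in all sets. With 2000 to 3500 detected genes Dlx1 had -0.31, Dlx2 -0.43, Sp8 -0.065 and Sp9 -0.15. The added alternative gave Dlx1 -0.47, Dlx2 -0.65, Dlx5 -0.21, Dlx6os1 -0.0088, Sp8 -0.48, Sp9 -0.55 and Gad1 -0.037.

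The number of reads behind a value is unknown, so a gene at 0 in a cell was not detected rather than absent. Thinned to 4000 corrected counts, Dlx1 was found in 77.2%, 68.5% and 85.6% and Dlx6 in 18.9%, 12.8% and 11% of the 3 sets. Intervals cover counting error only. A set is defined by single genes whose detection also depends on depth.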

Other observations

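Gad1 was found in OPC at 7.50%, 5.64% and 8.79% of cells in libraries 1, 2 and 3, with 13.9 CPM on average, against 0.836%, 0.618% and 1.13% of astrocytes. Adarb2, counted among the caudal interneuron genes, was found in 16.3% of OPC, so it was not confined to the neuronal sets.

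Among cells outside all sets, 725 had Stmn2 with neither Insm1 nor Gad2. Dlx1 was found in 234 of them (32.3%), Dlx6os1 in 230 (31.7%), Dlx2 in 204 (28.1%) and Gad1 in 101 (13.9%). They held 9.5% of all Dlx1-positive cells.

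Calb2, the calcium-binding protein calretinin, was at 47.8, 107 and 155 CPM in non-dividing Insm1+ cells of libraries 1, 2 and 3, against 17, 9.35 and 68.6 CPM in dividing Insm1+ cells. The Insm1- Gad2+Stmn2+ cells had 20.3, 10.9 and 80.3 CPM. In each library the non-dividing Insm1+ cells had the most.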
